A study of Mus musculus with 20 samples.

Results

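Laminins, nidogens and perlecan, the main proteins of basement membranes beside type IV collagen, were followed by the RNA of their genes in 2 mouse hypothalamic neuronal cell lines. Members were selected on their symbol: a probe set counted where the array annotation gave it 1 symbol and that symbol was Lama1, Lama2, Lama4, Lama5, Lamb1, Lamb2, Lamc1, Nid1, Nid2 or Hspg2. For a gene with several such probe sets the one chosen by the highest mean over all 20 arrays would have been used, but each measured member had 1, so its level over the arrays decided nothing. By this rule 9 of the 10 listed genes were measured, among 18820 genes in all. Nid2, which encodes nidogen-2, lay on 2 probe sets that carry a further symbol and was not analysed here.

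The study measured total RNA on 20 microarrays in 5 groups of 4, 3 of them from HypoE-46 (E46 below) and 2 from HypoA-2/12 (A2/12 below). E46, labelled sensitive to serotonin, was left as control or given serotonin labelled 1 µg/ml or labelled 100 µg/ml, and A2/12, labelled unresponsive to serotonin, was given serotonin labelled 100 µg/ml or was left as control. All cells were grown in DMEM with 10% fetal calf serum, penicillin and streptomycin to 90% confluency and moved to medium without serum 4 h before serotonin, and every group is labelled with 24 h of exposure. In the E46 serotonin arrays a further label gives the doses the other way round, so the doses are written as labelled 100 and labelled 1, after the titles. Lines of this series were immortalised from embryonic (E) or adult (A) mouse hypothalamus, and each is a single clone, so a difference between them is one between 2 clones. Whether arrays within a group stem from different cultures is not labelled, and p-values here rest on the scatter of arrays, which may be technical.

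A laminin is a cross-shaped trimer of an alpha, a beta and a gamma chain. The trimers bind cell surface receptors, chiefly integrins and dystroglycan, through the end of the alpha chain, and join into a sheet through the short arms of all chains. Nidogens tie this sheet to the network of type IV collagen, and perlecan, a large heparan sulphate proteoglycan, binds both and holds growth factors. In the brain, basement membranes lie mainly around blood vessels and under the pia, and laminin is a common substrate on which cultured neurons grow out.

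Values are log2 expression levels made by RMA, so 1 unit is a doubling. A level was taken as above background where it exceeded the level under which 95% of 1157 genes for odorant and pheromone receptors fell, which lay between 4.35 and 4.66 over the groups. Changes are log2 differences ± SE from a limma model over all arrays, with 4 arrays in each group, and calls were made at an adjusted p under 0.05 (Benjamini-Hochberg, over all 18820 genes). The correlation between any 2 arrays ranged from 0.927 to 0.995. Precision is limited by 4 arrays a group. Of 7 measured neuron markers, Map2, Syt1, Stmn2 and Eno2 lay above background in every group, while Rbfox3, Snap25 and Nefl did not. Of 6 fibroblast and meningeal markers, Col1a1, Col1a2, Col3a1, Dcn and Pdgfra lay above background in every group of both lines and Lum in none. E46 control replicate 3 had the highest mean of the epithelial markers among E46 controls (5.25), and A2/12 control replicate 4 that of the macrophage markers among A2/12 controls (6.71). A letter and number code in the labels runs with the order of the groups: the numbers 5, 7 and 9 are spread over all groups, but no letter is shared by the lines, nor by E46 controls and E46 at the labelled 1, so these contrasts and the letter cannot be told apart.

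Promoters were printed for 5 members that showed the main patterns below: Nid1 and Lama2, which lay at background in E46 and high in A2/12; Hspg2 and Lamb2, which were lower with serotonin labelled 100 in both lines; and Lamb1, the other beta chain, which was higher. The sequences are from RefSeq (GRCm38.p6), 5′ to 3′ on the gene's own strand, and run from 250 bases before to 50 bases after the start site of the table. Capitals mark the GC box, GGGCGG or its reverse complement. The regions are chr13:13437352-13437651 (plus strand) for Nid1, chr10:27616893-27617192 (minus strand) for Lama2, chr4:137468553-137468852 (plus strand) for Hspg2, chr9:108479612-108479911 (plus strand) for Lamb2 and chr12:31265043-31265342 (plus strand) for Lamb1.
Nid1: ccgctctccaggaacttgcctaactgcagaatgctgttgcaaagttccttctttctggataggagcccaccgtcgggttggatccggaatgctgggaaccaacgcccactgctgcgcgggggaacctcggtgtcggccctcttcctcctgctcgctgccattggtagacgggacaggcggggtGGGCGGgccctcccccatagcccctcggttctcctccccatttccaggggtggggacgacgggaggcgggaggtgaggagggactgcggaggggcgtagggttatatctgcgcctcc
Lama2: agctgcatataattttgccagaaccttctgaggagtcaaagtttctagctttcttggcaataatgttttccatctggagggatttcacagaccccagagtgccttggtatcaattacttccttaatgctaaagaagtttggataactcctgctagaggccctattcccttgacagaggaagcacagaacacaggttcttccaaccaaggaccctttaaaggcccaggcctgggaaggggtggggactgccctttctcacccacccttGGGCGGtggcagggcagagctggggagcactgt
Hspg2: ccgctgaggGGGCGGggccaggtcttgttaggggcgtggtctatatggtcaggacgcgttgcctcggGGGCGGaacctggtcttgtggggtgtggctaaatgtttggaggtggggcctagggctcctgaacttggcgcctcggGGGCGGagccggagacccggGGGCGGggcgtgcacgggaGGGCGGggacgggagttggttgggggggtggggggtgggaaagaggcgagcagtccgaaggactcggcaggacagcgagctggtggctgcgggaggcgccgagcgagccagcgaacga
Lamb2: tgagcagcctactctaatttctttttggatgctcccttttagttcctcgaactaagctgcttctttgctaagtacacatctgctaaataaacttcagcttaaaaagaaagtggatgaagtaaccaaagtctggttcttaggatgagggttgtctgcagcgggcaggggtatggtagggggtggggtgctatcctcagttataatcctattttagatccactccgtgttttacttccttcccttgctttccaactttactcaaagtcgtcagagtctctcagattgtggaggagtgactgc
Lamb1: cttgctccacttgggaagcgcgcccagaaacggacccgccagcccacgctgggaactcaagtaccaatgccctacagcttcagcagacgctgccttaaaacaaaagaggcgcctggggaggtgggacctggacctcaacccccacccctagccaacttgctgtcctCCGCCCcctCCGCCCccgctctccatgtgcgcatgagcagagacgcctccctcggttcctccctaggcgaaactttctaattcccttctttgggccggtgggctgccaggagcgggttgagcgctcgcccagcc

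The table held promoters of 6 members, the 5 above and Lama5. A GC box on either strand was found in 5 of these 6, with 5 matches in Hspg2, 4 in Lama5, 2 in Lamb1, 1 in Nid1, 1 in Lama2 and none in Lamb2, against 35.7% of all 32851 promoters of the table. The Lamb1 matches are both on the other strand, and the Lama2 match lies after the start site. The AP-1 site TGANTCA, the ATF4 composite site TGATGCAA, the E-box CACGTG and the TATA box TATAAA, searched on both strands, were found in none of the 6 windows. They were found in 7.81%, 0.895%, 7.15% and 13.6% of all promoters, in that order. The GC content was 72.7% in Lama5, 70.3% in Hspg2, 64.7% in Nid1, 63.7% in Lamb1, 50.3% in Lama2 and 44% in Lamb2, beside a median of 52.67% over the table. The matches describe these windows alone and say nothing of which factors bind there.

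The first comparison set E46 cells at serotonin labelled 100 against E46 controls, in the line labelled sensitive. The alpha-4 chain gene Lama4, the beta-2 chain gene Lamb2 and the perlecan gene Hspg2 fell, and the beta-1 chain gene Lamb1 rose. Of the 9 members, 1 was thus called higher and 3 lower, beside 20.3% and 19.3% of all genes. The other 5, Lama1, Lama2, Lama5, Lamc1 and Nid1, were not called. The median change over the members was -0.07, against -0.0035 over all genes. The same dose in A2/12, the line labelled unresponsive, was followed by calls in 8 of the 9 members. There 3 rose (Lama5, Lamb1 and Nid1) and 5 fell (Lama4, Lama2, Hspg2, Lamb2 and Lamc1), beside 24.8% of all genes called higher and 21.1% called lower, and the median change was -0.78 over the members and 0.0017 over all genes. In RNA of whole cultures, fewer cells of a kind and less RNA per cell cannot be told apart.

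**Figure D1:**
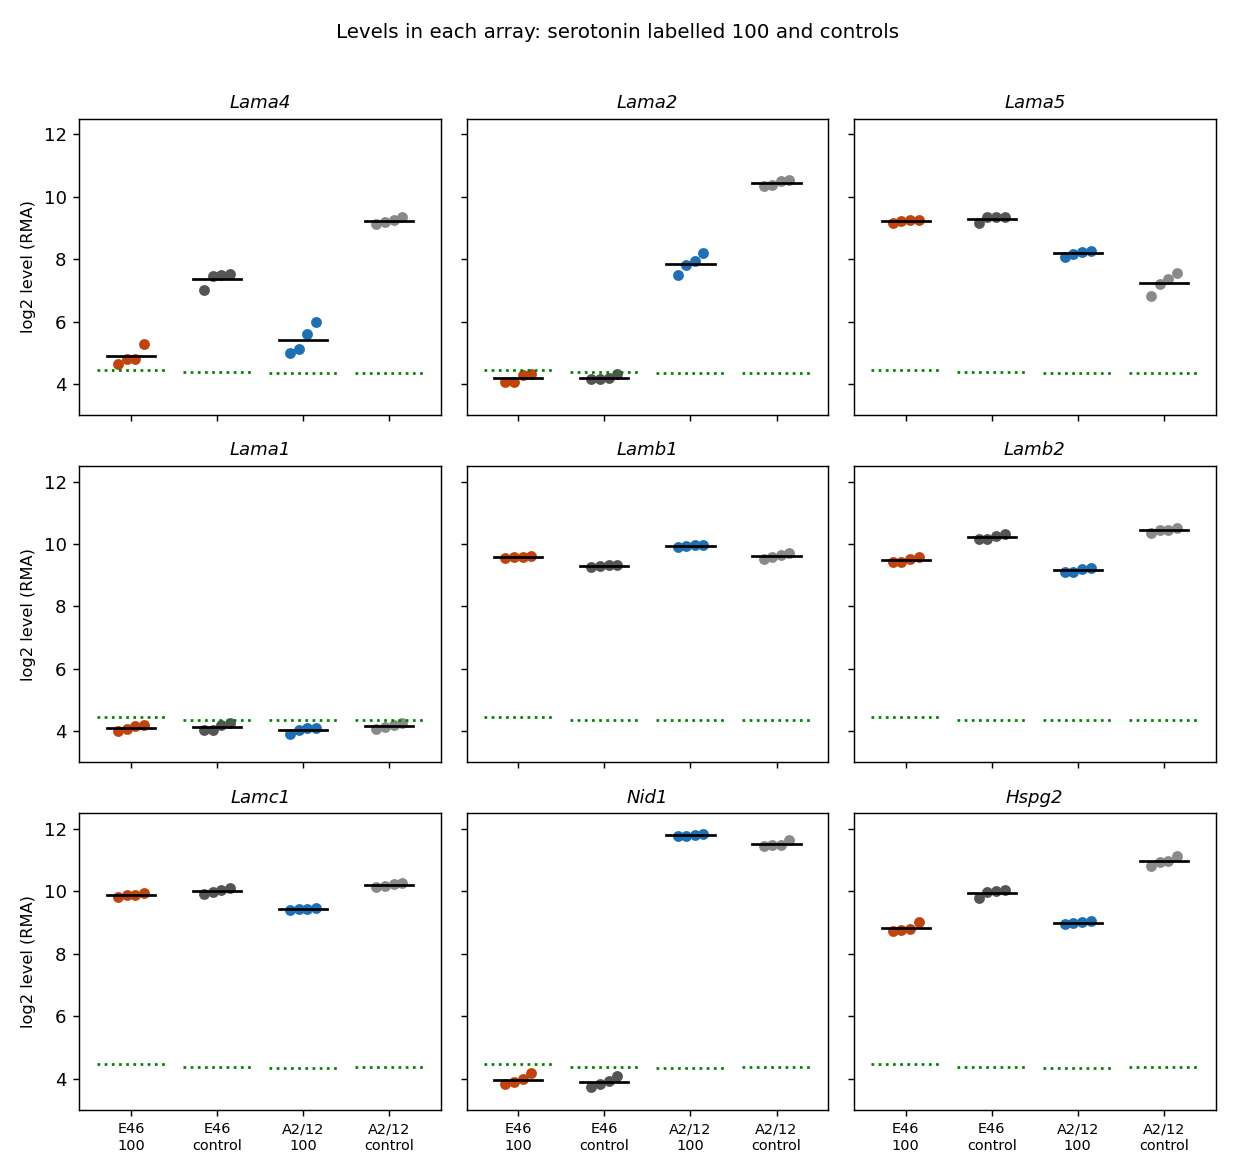
Log2 RMA level (y axis) of the 9 measured members in each array of E46 and A2/12 at serotonin labelled 100 and of their controls. Points are arrays, sorted by level within a group, black bars are means of 4, and green dotted lines mark the background of each group. Lama4, Hspg2 and Lamb2 sit lower at the labelled 100 in both lines with no overlap, and Nid1 lies between 11.46 and 11.83 in A2/12 and under the background line in E46.

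Among the alpha chains, which set the receptor binding of the trimer, Lama4 had the largest decrease in each line. This chain is short, lacks the arm that joins laminins into a sheet and is known from vessel walls and other tissues of mesenchymal origin. In E46 it measured 5.27, 4.81, 4.81 and 4.65 at the labelled 100, against 7.02, 7.48, 7.52 and 7.46 in controls. All 4 exposed arrays lay lower than all controls and little above their background of 4.45. The change was -2.49 ± 0.18 (5.62-fold lower, limma adjusted p = 3.40e-10), and 0.26% of all genes had a lower one. In A2/12 it measured 5.98, 5.60, 4.98 and 5.11 at the labelled 100, against 9.18, 9.13, 9.24 and 9.35 in controls. The groups were again far apart, the spread being wider among exposed arrays (SD 0.46) than among controls (SD 0.10). The change was -3.81 ± 0.18 (14.0-fold lower, adjusted p = 2.64e-13). Near the background RMA compresses differences, so both folds may be larger than measured. The order of the group means was A2/12 controls (9.22), E46 controls (7.37), E46 labelled 1 (7.30), A2/12 labelled 100 (5.42) and E46 labelled 100 (4.88), and within this order the arrays of E46 controls and labelled 1 overlapped, as did those of both lines at the labelled 100.

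Lama2, the alpha chain of the laminin of muscle and of the sheath of peripheral nerve, was well above background in A2/12 and at it in E46. It measured 8.19, 7.95, 7.48 and 7.80 in A2/12 at the labelled 100, against 10.33, 10.38, 10.50 and 10.54 in A2/12 controls. The exposed arrays lay lower throughout, and all of them were above background. The change was -2.58 ± 0.13 (5.98-fold lower, adjusted p = 1.18e-12). In E46 it measured 4.32, 4.29, 4.08 and 4.07 at the labelled 100, against 4.15, 4.32, 4.14 and 4.20 in controls. None of these 8 arrays was above background, so a decrease could not have been seen there.

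Lama5, the alpha chain with the widest range of tissues in adult animals, went the other way in A2/12. It measured 8.18, 8.06, 8.24 and 8.24 at the labelled 100, against 7.57, 6.81, 7.37 and 7.20 in controls. Every exposed array lay higher than every control, and the controls were the more scattered (SD 0.32, against 0.09 in exposed arrays). The change was 0.94 ± 0.11 (1.92-fold higher, adjusted p = 4.47e-07). In E46 the levels were 9.17, 9.23, 9.27 and 9.24 at the labelled 100, against 9.34, 9.34, 9.16 and 9.36 in controls. These overlapped, with a difference of -0.07 (95% confidence interval -0.31 to 0.16, adjusted p = 0.684). Lama1, the alpha chain of the early embryo and of the pial basement membrane, lay between 3.93 and 4.40 in all 20 arrays and under the background of its group in each, so no change of it could be judged.

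Among the beta chains, Lamb1 and Lamb2 changed in opposite directions in both lines. Lamb1, the usual beta chain of most tissues, measured 9.56, 9.62, 9.58 and 9.58 in E46 at the labelled 100, against 9.31, 9.28, 9.34 and 9.31 in controls. Both groups were tight and did not overlap. The change was 0.27 ± 0.07 (1.21-fold higher, adjusted p = 0.00237). In A2/12 it measured 9.96, 9.95, 9.91 and 9.96 at the labelled 100, against 9.72, 9.52, 9.66 and 9.58 in controls, again without overlap. The change was 0.33 ± 0.07 (1.25-fold higher, adjusted p = 0.000373). Lamb2, the beta chain known from the nerve-muscle synapse and the kidney filter, measured 9.59, 9.43, 9.53 and 9.43 in E46 at the labelled 100, against 10.16, 10.26, 10.16 and 10.33 in controls. All exposed arrays were lower. The change was -0.73 ± 0.09 (1.66-fold lower, adjusted p = 5.11e-07). In A2/12 it measured 9.19, 9.12, 9.22 and 9.09 at the labelled 100, against 10.50, 10.37, 10.46 and 10.45 in controls. The exposed arrays were again all lower, by 1.29 ± 0.09 in the means (2.44-fold lower, adjusted p = 6.15e-11). Within each array, Lamb1 minus Lamb2, set to 0 at the mean of the line's controls, was 1.01 ± 0.10 in E46 and 1.62 ± 0.08 in A2/12 at the labelled 100 (SD, n = 4 each), a pairing that was picked after its values were seen and not tested.

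Lamc1 encodes the gamma-1 chain, which most laminins share and which carries the site that nidogen binds. In A2/12 it measured 9.45, 9.44, 9.42 and 9.39 at the labelled 100, against 10.18, 10.13, 10.26 and 10.25 in controls. Every exposed array was lower. The change was -0.78 ± 0.07 (1.71-fold lower, adjusted p = 5.86e-09). In E46 it measured 9.87, 9.83, 9.96 and 9.89 at the labelled 100, against 9.91, 10.03, 9.99 and 10.10 in controls. These groups overlapped, and the difference of -0.12 (95% confidence interval -0.27 to 0.02) was not called (adjusted p = 0.196). After quantile normalization it was -0.17 and passed the threshold (adjusted p = 0.0268), as it did with median centring (0.0338), with array weights (0.0449) and with the 4 arrays whose upper quartile was lowest left out (0.0385).

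Nid1, the nidogen-1 gene, was high in A2/12, where it rose slightly, and under background in every E46 array. It measured 11.77, 11.78, 11.83 and 11.80 in A2/12 at the labelled 100, against 11.50, 11.46, 11.65 and 11.49 in controls. The exposed arrays lay higher throughout, A2/12 control replicate 3 being nearest to them. The change was 0.27 ± 0.09 (1.20-fold higher, adjusted p = 0.0227). This call did not hold without A2/12 labelled 100 replicate 3 (adjusted p = 0.0511), control replicate 2 (0.0574) or control replicate 4 (0.0511), nor with median centring (0.0523), array weights (0.0579) or the 4 arrays whose upper quartile was lowest left out (0.0522). In E46 it measured 3.88, 3.81, 3.98 and 4.18 at the labelled 100, against 3.84, 4.07, 3.74 and 3.91 in controls. All 8 arrays lay under background.

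Hspg2, the perlecan gene, fell in both lines. In E46 it measured 9.01, 8.77, 8.74 and 8.78 at the labelled 100, against 10.03, 10.02, 9.79 and 9.99 in controls. The 2 sets of arrays stood apart, with E46 control replicate 3 the lowest control. The change was -1.13 ± 0.09 (2.19-fold lower, adjusted p = 1.41e-09). In A2/12 it measured 9.04, 9.01, 8.97 and 8.95 at the labelled 100, against 11.15, 10.80, 10.99 and 10.94 in controls. The gap was wider in this line. The change was -1.98 ± 0.09 (3.93-fold lower, adjusted p = 1.76e-13), and 1.92% of all genes had a lower one. The exposed arrays of both lines ended close together, with means of 8.99 in A2/12 and 8.83 in E46, and overlapped.

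Within the arrays of code number 5, 7 or 9 taken alone, the called changes kept their direction. In E46, Lama4 fell by between 2.44 and 2.71 on the log2 scale, Hspg2 differed by between -1.27 and -1.02, Lamb2 by between -0.75 and -0.72 and Lamb1 by between 0.27 and 0.29. In A2/12, Lama4 fell by between 3.58 and 4.29, Lama2 by between 2.38 and 2.95 and Hspg2 by between 1.81 and 2.07, while Lama5 differed by between 0.69 and 1.40. Number 9 holds 1 array in each of the groups compared here, and the spread in its fit comes from the 2 arrays of E46 labelled 1, so its calls are not read. In it Lamb2 in E46 (-0.73) and Lamc1 in A2/12 (-0.81) differed by about as much as over all arrays. In numbers 5 and 7 the calls for Lamb1 in E46 and for Nid1 in A2/12 were lost, and in number 5 that for Lamb1 in A2/12, in fits of fewer arrays.

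**Figure D2:**
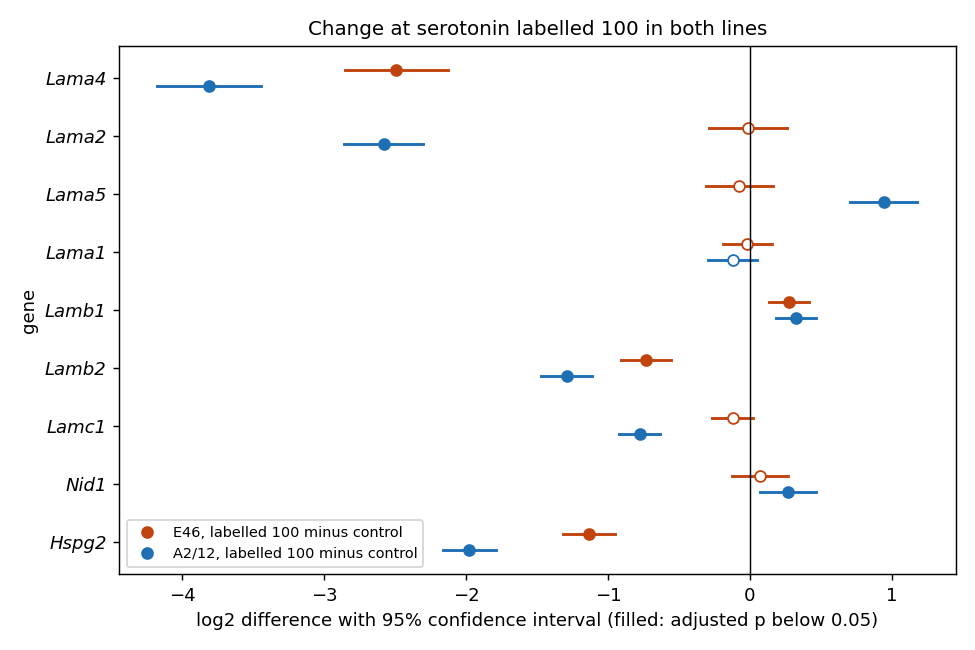
Log2 difference between serotonin labelled 100 and control (x axis) for each member in E46 (red, upper) and A2/12 (blue, lower). Points are estimates over 4 against 4 arrays, bars are 95% confidence intervals, and filled points had an adjusted p below 0.05. Lama4, Lamb2 and Hspg2 lie left of 0 in both lines and further left in A2/12. Lamb1 lies right of 0 by about the same in both. Lama2, Lama5 and Lamc1 depart from 0 in A2/12, as does Nid1 slightly.

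The labelled 1 asked whether less serotonin moved the same genes in E46. None of the 9 members was called against controls, beside 0.00531% of all genes called higher and 0.00531% called lower. Over all genes, 2 were called by limma in this comparison, and 2993 had an unadjusted p under 0.05. Lama4 measured 7.17, 7.45, 7.14 and 7.43 at the labelled 1 and Hspg2 9.67, 9.92, 9.59 and 9.84. Set against the control values above, both overlapped the controls. The differences were -0.08 (95% confidence interval -0.44 to 0.29) for Lama4 and -0.21 (-0.39 to -0.02, adjusted p = 0.272) for Hspg2. Lamb1 measured 9.21, 9.17, 8.98 and 9.35 and Lamb2 9.88, 10.16, 9.74 and 10.19. They overlapped their controls too, with a difference of -0.13 for Lamb1 (adjusted p = 0.347) and -0.24 for Lamb2 (0.229). Lama5 measured 8.91, 9.15, 8.90 and 9.13 and was the member whose arrays all lay lower than the controls, as they did for 4.76% of all genes. Its difference of -0.28 ± 0.11 was not called (adjusted p = 0.259). Lamc1 measured between 9.67 and 9.99, Lama2 between 4.23 and 4.87 with 1 array above background, and Nid1 between 3.91 and 4.33 with none. Leaving out E46 labelled 1 replicate 2 raised the count over all genes to 284, with no member among them.

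At the labelled 100 against the labelled 1 in E46, Lama4, Hspg2 and Lamb2 fell and Lamb1 rose. The changes were -2.41 ± 0.18 for Lama4 (adjusted p = 6.01e-10), -0.93 ± 0.09 for Hspg2 (2.61e-08), -0.50 ± 0.09 for Lamb2 (6.86e-05) and 0.41 ± 0.07 for Lamb1 (4.65e-05). That was 1 member called higher and 3 lower, beside 23.6% and 17.8% of all genes. This comparison and that against controls share the labelled 100 arrays. Lama5 had all 4 arrays of the labelled 100 higher than those of the labelled 1, as did 22.1% of all genes. Its difference of 0.21 was not called (adjusted p = 0.164). Without E46 labelled 1 replicate 2, Lama2 and Nid1, both at background, also passed (adjusted p = 0.0299 for Lama2 and 0.0196 for Nid1), and Nid1 passed without E46 labelled 100 replicate 4 (0.0342). If the other dose label is the right one, every sign in this paragraph turns and the changes of the first comparison belong to the lower dose.

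**Figure D3:**
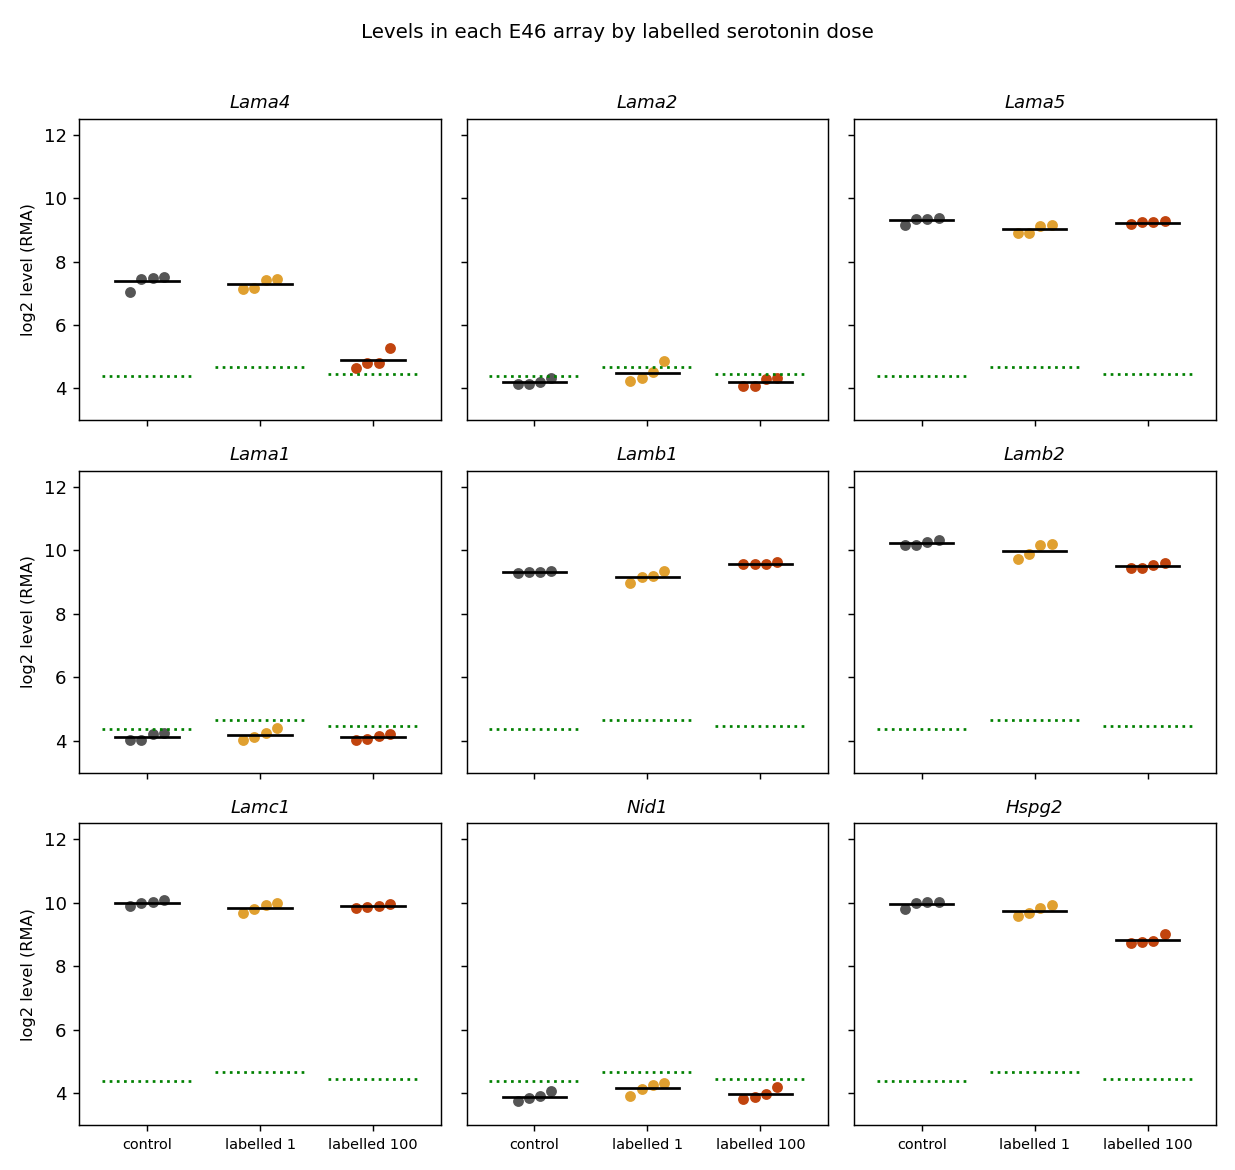
Log2 RMA level (y axis) of the 9 measured members in E46 controls and at serotonin labelled 1 and labelled 100. Points are arrays, sorted by level within a group, black bars are means of 4, and green dotted lines mark the background. Lama4, Lamb2 and Hspg2 are lower at the labelled 100 with no overlap, Lamb1 is higher, and at the labelled 1 the arrays of all members but Lama5 overlap those of the controls.

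The difference between the responses of the lines was tested directly, as the change in E46 minus the change in A2/12. It was called for 6 members, 5 higher and 1 lower, beside 11.1% and 10.9% of all genes. Among genes that fell in both lines, the decrease was smaller in E46 by 1.32 ± 0.25 for Lama4 (adjusted p = 0.00041), by 0.84 ± 0.12 for Hspg2 (2.89e-05) and by 0.56 ± 0.12 for Lamb2 (0.00171). Lama4 was lower in E46 controls than in A2/12 controls. At the labelled 100 it averaged 4.88 in E46, little above the background of 4.45, and 5.42 in A2/12, where the background was 4.35. Lamc1, called in A2/12 alone, differed by 0.66 ± 0.10 (3.31e-05), and Lama5 by -1.02 ± 0.16 (6.09e-05). The difference for Lama2 was 2.57 ± 0.19 (2.52e-09), but the gene lay at background in E46, so this is the change in A2/12 under another name. For Lamb1 the difference was -0.05 (95% confidence interval -0.25 to 0.15, adjusted p = 0.782), and for Nid1 it was -0.20 (adjusted p = 0.353). Lama1 gave 0.10 (adjusted p = 0.609). Nid1 lay under background in every E46 array and Lama1 in every array of both lines, so neither value compares measured responses of the lines. With the doses of the other label, the difference for Lamb1 was -0.46 and was called (adjusted p = 0.000582), and it was 3.73 for Lama4, 1.77 for Hspg2 and 1.05 for Lamb2.

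Between the lines without serotonin, E46 controls were set against A2/12 controls with the array values given above. Of the 9 members 1 was called higher in E46 and 6 lower, beside 21.1% and 18.1% of all genes. Nid1 lay under background in each E46 control and at 11.46 or more in each A2/12 control, a difference of at least 142-fold lower in E46 when set against the background level (log2 difference as measured -7.64 ± 0.09, adjusted p = 1.62e-22). Lama2 was at least 66.8-fold lower in E46 by the same bound (measured difference -6.23 ± 0.13, adjusted p = 7.77e-19). Only 0.0159% of all genes had a lower difference than Nid1 and 0.0425% a lower one than Lama2. Lama5 was 4.18-fold higher in E46 (2.06 ± 0.11, adjusted p = 3.01e-12), with no overlap of arrays. Lama4 was 3.61-fold lower (-1.85 ± 0.18, adjusted p = 1.93e-08) and Hspg2 2.01-fold lower (-1.01 ± 0.09, adjusted p = 5.65e-09).

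The remaining differences between the control lines were small. Lamb1 differed by -0.31 ± 0.07 (adjusted p = 0.000886), Lamb2 by -0.22 ± 0.09 (0.0519) and Lamc1 by -0.20 ± 0.07 (0.0299), in each case with no overlap between the lines. For 17.1% of all genes, all 4 E46 controls lay lower than all A2/12 controls. The Lamb2 value, just short of the threshold, passed it without E46 control replicate 4 (0.0405) or A2/12 control replicate 2 (0.0484), and without the 4 arrays whose upper quartile was lowest (0.0155). It also passed with eBayes trend (0.0328), array weights (0.0168), quantile normalization (0.0317) and dim genes left out (0.0370). The Lamc1 call was lost without E46 control replicate 1 (0.0893) or 3 (0.0620) or A2/12 control replicate 3 (0.0801) or 4 (0.0734), without both E46 control replicate 3 and A2/12 control replicate 4 (0.126), and with median centring (0.0697). Lamb1, Lamb2 and Lamc1 were each not called within code number 5 or 7 alone, in fits of fewer arrays. Within numbers 5, 7 and 9 Lamb1 differed by between -0.34 and -0.25. At the labelled 100 the lines still differed in Nid1 and Lama2, Nid1 being at least 162-fold and Lama2 at least 10.6-fold lower in E46.

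**Figure D4:**
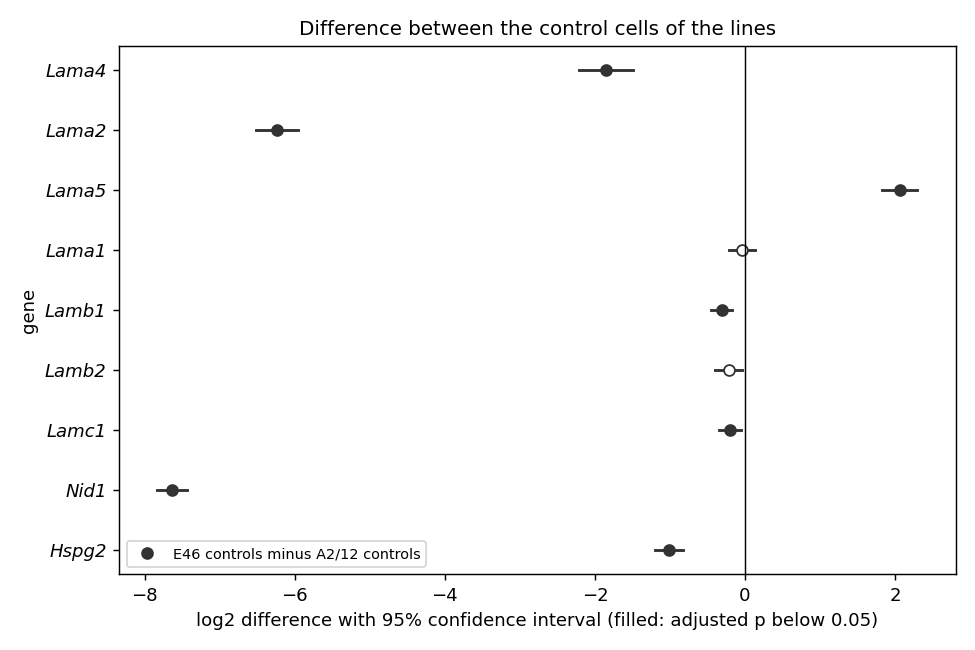
Log2 difference between E46 controls and A2/12 controls (x axis) for each measured member. Points are estimates over 4 against 4 arrays, bars are 95% confidence intervals, and filled points had an adjusted p below 0.05. Nid1 (-7.64) and Lama2 (-6.23) stand far to the left as genes under background in E46, and Lama5 (2.06) is the member to the right.

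The 3 genes whose 5 group means, each centred on the gene's own mean, lay nearest to those of Lama4 were Igsf10, Itgbl1 and Vegfd. Their Euclidean distances over the 5 groups were 0.453, 0.571 and 0.723 on the log2 scale. Igsf10, an immunoglobulin superfamily gene, averaged 8.70 in E46 controls, 8.28 at the labelled 1 and 5.84 at the labelled 100, and 6.19 in A2/12 at the labelled 100 and 10.00 in A2/12 controls. This is a likeness of pattern over 5 means and was not tested.

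Other laminin chains lay near background or were not called. Lama3 and Lamb3, known mainly from epithelia, and Lamc3 were measured. Lama3 had a called decrease in both lines, with 4.20 ± 0.08 in E46 at the labelled 100 against 4.53 ± 0.07 in controls and 4.16 ± 0.04 in A2/12 at the labelled 100 against 4.61 ± 0.11 in controls (SD, n = 4 each), under background when exposed and near it in controls. Set against background it was at least 1.05-fold lower in E46 and at least 1.20-fold lower in A2/12. The limma adjusted p belongs to the measured difference, not to the bound, and was 0.000577 in E46 and 1.33e-05 in A2/12. Lamb3 and Lamc3 were not called in either line. Netrins, guidance proteins with the same N-terminal domain as laminins, had 2 of 5 genes called lower in E46, beside 19.3% of all genes, and 4 of 5 in A2/12, beside 21.1%, and none higher. Ntn4, the netrin that binds laminin itself, averaged 5.08 ± 0.22 in E46 at the labelled 100 and 6.50 ± 0.09 in controls (change -1.42, adjusted p = 1.27e-08), and changed by -0.67 in A2/12 (0.000177). Ntng1, a membrane-bound netrin, averaged 3.76 in A2/12 at the labelled 100, under background, and 6.75 in controls. This makes it at least 5.30-fold lower (adjusted p = 7.50e-14 for the measured difference). It lay under background in E46. Ntn5 averaged 4.88 at the labelled 100 and 5.38 in controls in E46, and 4.77 and 5.14 in A2/12. Ntn1 averaged 7.77 and 7.87 in E46, and 5.47 and 5.99 in A2/12, in the same order. Ntn3 averaged 5.75 and 5.90 in E46, and 6.10 and 5.93 in A2/12, where it was higher when exposed but not called.

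The other basement membrane components, 25 genes, had 18 called lower in E46, beside 19.3% of all genes, and 22 in A2/12, beside 21.1%, with none called higher in either line. Their median change was -0.86 in E46, against -0.0035 over all genes, and -0.71 in A2/12, against 0.0017. Tinagl1, a matricellular protein of basement membranes, averaged 8.62 ± 0.16 in E46 at the labelled 100 and 10.21 ± 0.07 in controls, and 8.95 ± 0.09 in A2/12 at the labelled 100 and 10.90 ± 0.13 in controls. Its change was -1.59 in E46 (adjusted p = 4.73e-12) and -1.95 in A2/12 (6.57e-14). Fbln1, the fibulin-1 gene, fell by 1.33 in E46 and 2.19 in A2/12. Pxdn, the peroxidase that crosslinks type IV collagen, fell by 1.10 in E46 and 0.64 in A2/12. Fras1, a protein of epithelial basement membranes, fell by 1.45 in E46 and 2.13 in A2/12, ending near background in both lines. Smoc1, a calcium-binding matrix protein, fell by 0.65 in E46 and 2.01 in A2/12, a difference of response of 1.36 (adjusted p = 3.13e-06). Tinag averaged 4.05 in A2/12 at the labelled 100, under background, and 6.21 in controls. This makes it at least 3.64-fold lower (adjusted p = 1.63e-13 for the measured difference). It lay under background in both E46 groups.

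Of 18 laminin receptors and their partners, 15 were called lower and none higher in E46, beside 19.3% and 20.3% of all genes. In A2/12, 13 were called lower and 1 higher, beside 21.1% and 24.8%. The median was -0.59 in E46, against -0.0035 over all genes, and -0.41 in A2/12, against 0.0017. Dag1, which encodes dystroglycan, averaged 9.87 ± 0.08 in E46 at the labelled 100 and 10.65 ± 0.07 in controls, and 9.65 ± 0.06 in A2/12 at the labelled 100 and 10.75 ± 0.08 in controls. It fell by 0.78 in E46 (adjusted p = 2.36e-09) and 1.10 in A2/12 (5.67e-12). Utrn, which ties dystroglycan to actin, fell by 1.05 in E46 and 1.47 in A2/12. Itga1, an integrin subunit for collagen and laminin, fell by 1.56 in E46 and 1.57 in A2/12. Sgce, a partner of dystroglycan, fell by 0.46 in E46 and 1.30 in A2/12, a difference of 0.84 (2.66e-06). Itga3, a laminin integrin subunit, fell by 0.91 in E46 (4.21e-09) and measured 0.01 in A2/12 (0.913), and the difference of response was -0.92 (1.49e-06). Itga2, a collagen and laminin integrin subunit, was the receptor that rose in A2/12, by 1.35 (8.30e-10), and was near background in E46.

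Genes of dystroglycan glycosylation, which builds the sugar that laminin binds, were called in both directions. Of 8 measured, 2 were called higher and 2 lower in E46, beside 20.3% and 19.3% of all genes. In A2/12, 3 were called higher and 1 lower, beside 24.8% and 21.1%. Counts this small are near those shares. Changes ran from -0.63 to 0.31 in E46 and from -0.32 to 0.50 in A2/12, with medians of -0.08 in E46 and -0.02 in A2/12. Pomgnt2, a glycosyltransferase of this pathway, rose by 0.31 in E46 and 0.50 in A2/12. Pomt2, which adds the first mannose, rose by 0.25 in E46 and 0.36 in A2/12. Pomgnt1 rose in A2/12 (0.49, adjusted p = 3.75e-07) and measured 0.07 in E46 (0.373). Dpm3, which serves sugar transfer in the endoplasmic reticulum, fell by 0.53 in E46 and 0.32 in A2/12. Gmppb, which makes the mannose donor, fell by 0.63 in E46 and measured -0.30 in A2/12 (0.0823). Pomk was called in neither line.

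Heparan sulphate synthesis and editing, which makes and trims the chains of perlecan, had 2 of 20 genes called higher and 12 lower in E46, beside 20.3% and 19.3% of all genes. In A2/12, 4 were called higher, a share under the 24.8% of all genes, and 7 lower, beside 21.1%. The medians were -0.33 in E46 and -0.06 in A2/12. Sulf2, a sulphatase that trims finished chains outside the cell, averaged 6.86 ± 0.18 in E46 at the labelled 100 and 8.30 ± 0.09 in controls, and 6.49 ± 0.35 in A2/12 at the labelled 100 and 9.89 ± 0.11 in controls. It fell by 1.44 in E46 (adjusted p = 1.30e-08) and 3.40 in A2/12 (2.58e-14). Its relative Sulf1 fell by 2.32 in A2/12 and lay under background in E46. Glce, the epimerase of the chain, rose by 1.11 in E46 and 0.89 in A2/12. Ext1, part of the polymerase, fell by 0.83 in E46 and measured -0.12 in A2/12 (0.314), and Hs3st1, a sulphotransferase, fell by 1.17 in E46 and was near background in A2/12. Hs6st1, another sulphotransferase, fell by 0.67 in E46 and rose by 0.43 in A2/12.

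Matrix proteases and their inhibitors had 2 of 19 genes called higher and 13 lower in E46, beside 20.3% and 19.3% of all genes. In A2/12, 4 were called higher, near the 24.8% of all genes, and 10 lower, beside 21.1%. The medians were -0.70 in E46 and -0.81 in A2/12. Plau, the urokinase gene, averaged 4.65 ± 0.19 in E46 at the labelled 100 and 6.92 ± 0.08 in controls, a change of -2.27 (adjusted p = 9.19e-12). In A2/12 it measured 0.01 (0.956), and the difference of response was -2.28 (3.80e-09). Mmp2, a gelatinase that cuts basement membrane proteins, fell by 2.20 in E46 and 0.97 in A2/12. Plat, the tissue plasminogen activator gene, fell by 1.49 in E46 and 2.14 in A2/12. Timp1, an inhibitor of metalloproteinases, fell by 1.33 in E46 and 1.31 in A2/12. Adamts4, an aggrecanase, fell by 0.70 in E46 and rose by 1.39 in A2/12, while its relative Adamts5 fell by 0.97 in E46 and 2.72 in A2/12. At the labelled 1 no gene of these 7 lists was called in E46.

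**Figure D5:**
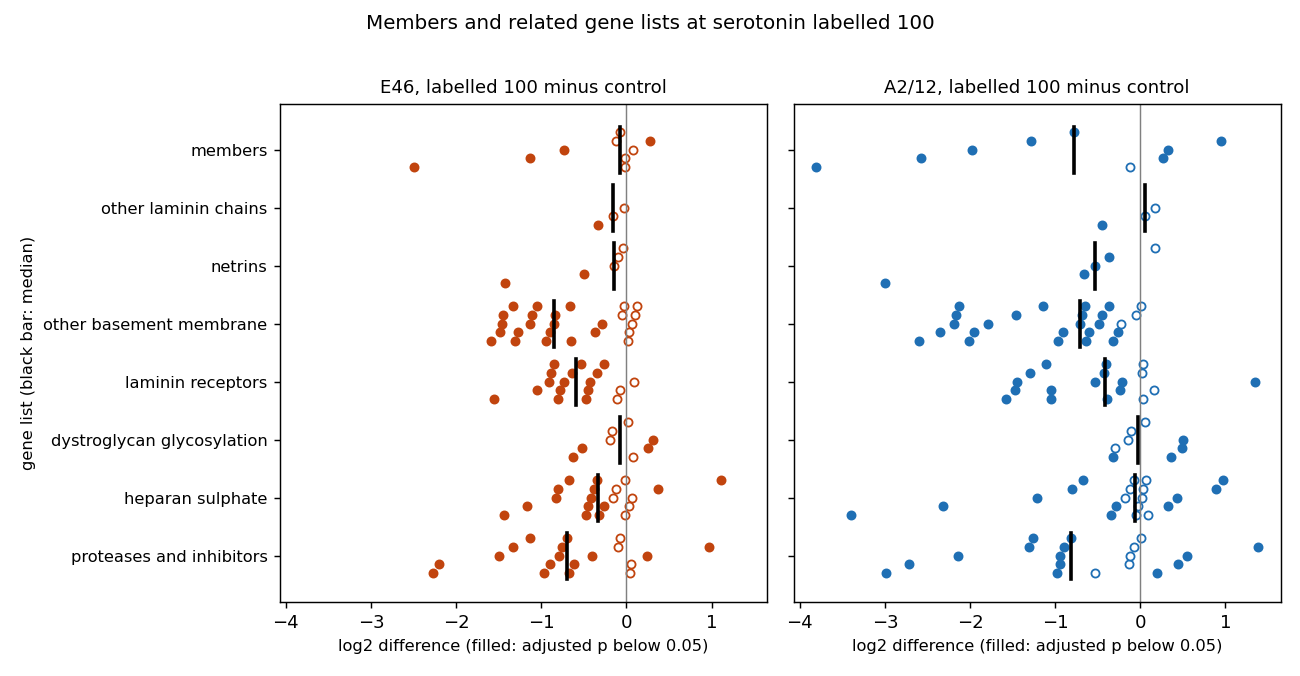
Log2 difference between serotonin labelled 100 and control (x axis) for the measured genes of each list in E46 (left, red) and A2/12 (right, blue). Each point is a gene, filled where its adjusted p was below 0.05, and black bars are list medians. Other basement membrane components (median -0.86 in E46 and -0.71 in A2/12) and laminin receptors (-0.59 in E46 and -0.41 in A2/12) lie mostly left of 0, while dystroglycan glycosylation (-0.08 in E46 and -0.02 in A2/12) lies around it.

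Markers of several cell types changed too at the labelled 100. Of all genes, 19.3% were called lower and 20.3% higher in E46, and 21.1% lower and 24.8% higher in A2/12. Of 6 fibroblast and meningeal markers, 5 were called lower in E46 and 4 in A2/12, with none higher. Their mean level per array was 6.56 to 7.30 in E46 at the labelled 100 and 8.30 to 8.44 in controls, and 7.24 to 7.94 in A2/12 at the labelled 100 and 9.79 to 9.94 in controls. Of 5 mural markers 4 were called lower in each line. Their mean level per array was 7.05 to 7.35 in E46 at the labelled 100 and 8.11 to 8.19 in controls, and 7.86 to 7.90 in A2/12 at the labelled 100 and 8.45 to 8.59 in controls. Rgs5 of this list lay under background in every group. Of 8 astrocyte, tanycyte and progenitor markers 4 were called lower in E46 and 3 in A2/12, with none higher. With so few genes, the A2/12 count is near the share of all genes. The mean level of these markers per array was 6.41 to 6.54 in E46 at the labelled 100 and 7.15 to 7.23 in controls, and 5.84 to 5.99 in A2/12 at the labelled 100 and 6.21 to 6.28 in controls. Of 5 macrophage markers, 1 was called higher and none lower in each line, near the share of all genes. The medians of that list were -0.10 in E46 and -0.25 in A2/12. The marker called was Cd68, which rose by 0.60 in E46 (adjusted p = 0.0341) and by 0.79 in A2/12 (0.00506), where its arrays overlapped. Of 7 neuron markers 2 were called lower in E46, near the share of all genes, and 4 in A2/12. Map2 fell by 1.79 in E46 and 1.92 in A2/12. Of the 6 endothelial markers, 1 was called lower in E46, and 2 were called higher and 2 lower in A2/12. The medians of this list were -0.01 in E46 and 0.06 in A2/12. Kdr and Pecam1 had means under background in every group, and Tek fell by 2.16 in E46 and 1.07 in A2/12. Cdh5 rose in A2/12, with 5.87 ± 0.21 at the labelled 100 and 4.30 ± 0.07 in controls (SD, n = 4 each). Those controls were near background. The part of these markers in the results was not tested. Leaving out the 2 control arrays with high epithelial or macrophage markers, or the 4 arrays whose upper quartile was lowest, changed no count of members by more than 1.5 times.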

How the data were processed

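RNA of 20 samples was read on microarrays. Per the submitters' processing notes the authors' deposited log2 values come from RMA (release not given in the sources used here), a method that removes background, equalises arrays and combines the probes of a probe set. The upper quartile of the deposited values still ran from 8.09 to 8.31 over the arrays, a spread near the size of the smallest called changes. Detection calls were not used, and RMA compresses differences near background. Of 35556 probe sets, 21218 have 1 symbol, 1881 several and 12457 none in the array annotation. Where 1386 genes had several probe sets with 1 symbol, that of the highest overall mean stood for the gene, giving 18820 genes. The members and the gene lists were chosen with earlier results of these data known, so their calls are no independent support.

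All arrays entered one limma fit (version 3.58.1, R 4.3.3) with a mean for each of 5 groups, 15 residual degrees of freedom, moderation by eBayes and Benjamini-Hochberg adjustment across genes. The procedure was tested first on simulated data with independent arrays and few changed genes. That setting differs from these data, so it does not show how the calls behave if arrays share error. Where every array of a group lay under background, a fold is a bound, the brighter group's mean against the background level of the dimmer group. Lama3, Lamb3 and Lamc3 were all named, and from each other list up to 4 genes with the smallest adjusted p at the labelled 100 in E46 and up to 2 more with the smallest for the difference of responses were named. The markers singled out were picked after their values were seen. Protein motifs were not searched.

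Tried beside this were: lines fitted separately; other eBayes settings (trend, robust) and array weights; replicate or code number as a block, and single code numbers; quantile normalization or median centring; no dim genes; other choices of probe set; a minimum fold of 1.5; the doses of the other label; and fits with arrays left out. Python 3.11.15 searched the promoters, and matplotlib 3.10.9 drew the figures.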

Additional observations from a re-analysis of the deposited data

Results flagged for a closer look

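In 4 of the 45 sets of 4 arrays that a member and a group give, 1 array stood apart from the others by Dixon's test at 95%, which by chance marks about 1 in 20 sets. Lama4 was lowest in E46 control replicate 1, with 7.02 where the next lowest array had 7.46. Lama5 was lowest in E46 control replicate 3, with 9.16 where the next had 9.34, and Hspg2 was lowest in the same array, with 9.79 where the next had 9.99. Nid1 was highest in A2/12 control replicate 3, with 11.65 where the next had 11.50. Without that array the Nid1 change in A2/12 was 0.31. The arrays concerned are all controls.

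The response to serotonin labelled 100 differed between E46 and A2/12, by the test of the difference itself, for 6 members. As the change in E46 minus the change in A2/12, the difference was 2.57 for Lama2, 1.32 for Lama4, 0.84 for Hspg2, 0.66 for Lamc1, 0.56 for Lamb2 and -1.02 for Lama5. The largest adjusted p among them was 0.00171, for Lamb2. Lama2 lay at background in E46, so its value there is not a measured response.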

How the results depend on the processing

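The members called numbered 4 for E46 labelled 100 against control, 0 for E46 labelled 1 against control, 4 for labelled 100 against labelled 1, 8 for A2/12, 6 for the difference of responses and 7 between the control lines. Leaving out 1 array at a time gave 4 to 4, 0 to 0, 4 to 6, 7 to 8, 6 to 6 and 6 to 8 in that order. With the replicate block the counts were 4, 0, 4, 8, 6 and 7. Arrays of the same number did not deviate together in every pair (r between -0.26 and 0.41), so the number was taken as a name only. With code number 9 alone the counts were 1 for E46 labelled 100 against control, 2 for labelled 100 against labelled 1, 4 for A2/12 and 0 for the difference of responses. With number 5 alone they were 2 for labelled 100 against labelled 1 and 2 for the difference of responses, and with number 7 alone the difference of responses had 2. These fits hold fewer arrays, and in number 9 the spread comes from 2 arrays of 1 group. A minimum fold of 1.5 gave 3 for E46 labelled 100 against control, 2 for labelled 100 against labelled 1 and 6 for A2/12. It gave 5 for the difference of responses and 5 between the control lines. Under it the calls against control at the labelled 100 were lost for Lamb1 in both lines and for Nid1 in A2/12. With the doses of the other label, which exchange the E46 serotonin groups, the labelled 100 had 0 members called against control and the labelled 1 had 4. Lamb1 then turned to -0.13 at the labelled 100 and 0.27 at the labelled 1, and between the doses Lama4 turned to 2.41, Hspg2 to 0.93, Lamb2 to 0.50 and Lamb1 to -0.41.

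Over all genes, the calls for E46 labelled 100 against control were 7451, with 3183, 3469 and 871 in code numbers 5, 7 and 9 alone, 3115 with the minimum fold and 2 with the other dose label. For labelled 100 against labelled 1 they were 7796, with 2051, 5107 and 1371 in these numbers and 3220 with the minimum fold. For A2/12 they were 8645, with 4161 in number 5, 1864 in number 9 and 4397 with the minimum fold. For the difference of responses they were 4142, with 886, 1593 and 73 in the numbers, 2293 with the minimum fold and 7435 with the other dose label. Between the control lines they were 7368, with 3782, 3674 and 1292 in the numbers and 2983 with the minimum fold. For E46 labelled 1 against control they were 2, with 7451 under the other dose label, 284 without E46 labelled 1 replicate 2, 4 without replicate 4 and 0 or 1 in the other settings that moved it.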
